A study of Arabidopsis thaliana with 6 samples.

Results

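A group of Arabidopsis transcripts stood high in every seedling sample sprayed with NJ15 and also in 1 of the 3 mock samples. The group was defined from the values themselves: a probe set belonged to it when mock replicate 1 and each of the 3 NJ15 arrays lay at least 0.5 log2 units above the higher of mock replicates 2 and 3. Of 22746 tested probe sets, 86 met this margin (0.378%). The rule also left out 14 genes by name, among them the calmodulin-like genes CML23 and CML38 and the zinc finger gene STZ; 12 of these met the margin, and 74 members remained. Of these, 27 were paired with 1 gene, 2 with several genes, and 45 had no entry in the gene table used here and are called by their probe set. All 6 values of all 74 members were used, with no filter on low values. The label of the group, genes high in NJ15 and in 1 mock array, is what the rule selects, so the height of these 4 arrays is a description and not a finding.

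The seedlings were Col-0, the wild type strain of Arabidopsis thaliana. They stood vertically on MS plates for 4 days, were sprayed with mock solution or with 10 µM NJ15, a tetrazole acetic acid ethyl ester bearing a dichlorophenyl ring, and were turned by 90 degrees. After 8 h whole seedlings gave the RNA, and each sample was measured on its own Affymetrix array, 3 per group, which the labels call biological replicates; all p-values measure the spread between these samples. The labels give neither the content of the mock solution nor the number of seedlings per sample. Mock and NJ15 seedlings alike were sprayed and turned, so no array shows seedlings left untouched.

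Spraying, turning and touching are mechanical stimuli, and plants respond to such stimuli, to wounding and to many chemicals with a fast wave of transcripts. Calcium signals and jasmonate are known triggers, calcium-binding proteins and transcription factors of the AP2/ERF, WRKY and zinc finger families are typical early products, and many of these transcripts are short-lived. This is background on genes of the kind found among the members; what the mock and NJ15 samples went through beyond their labels is not recorded.

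The log2 level of the median member was 8.83 in mock replicate 1, against 7.004 and 6.99 in mock replicates 2 and 3. In NJ15 replicates 1, 2 and 3 it was 9.22, 9.99 and 8.76. Mock replicate 1 thus lay between NJ15 replicates 3 and 1, while mock replicates 2 and 3 lay together well below these 4 arrays. Relative to the mean of mock replicates 2 and 3, the median member was higher by 1.25 in mock replicate 1 (range 0.64 to 3.05) and by 1.69 in the mean of the NJ15 arrays (range 0.87 to 5.57). Both differences share the same 2 mock arrays. Because RNA came from whole seedlings, more cells of a type and more RNA per cell cannot be told apart in any of these values.

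**Figure D1:**
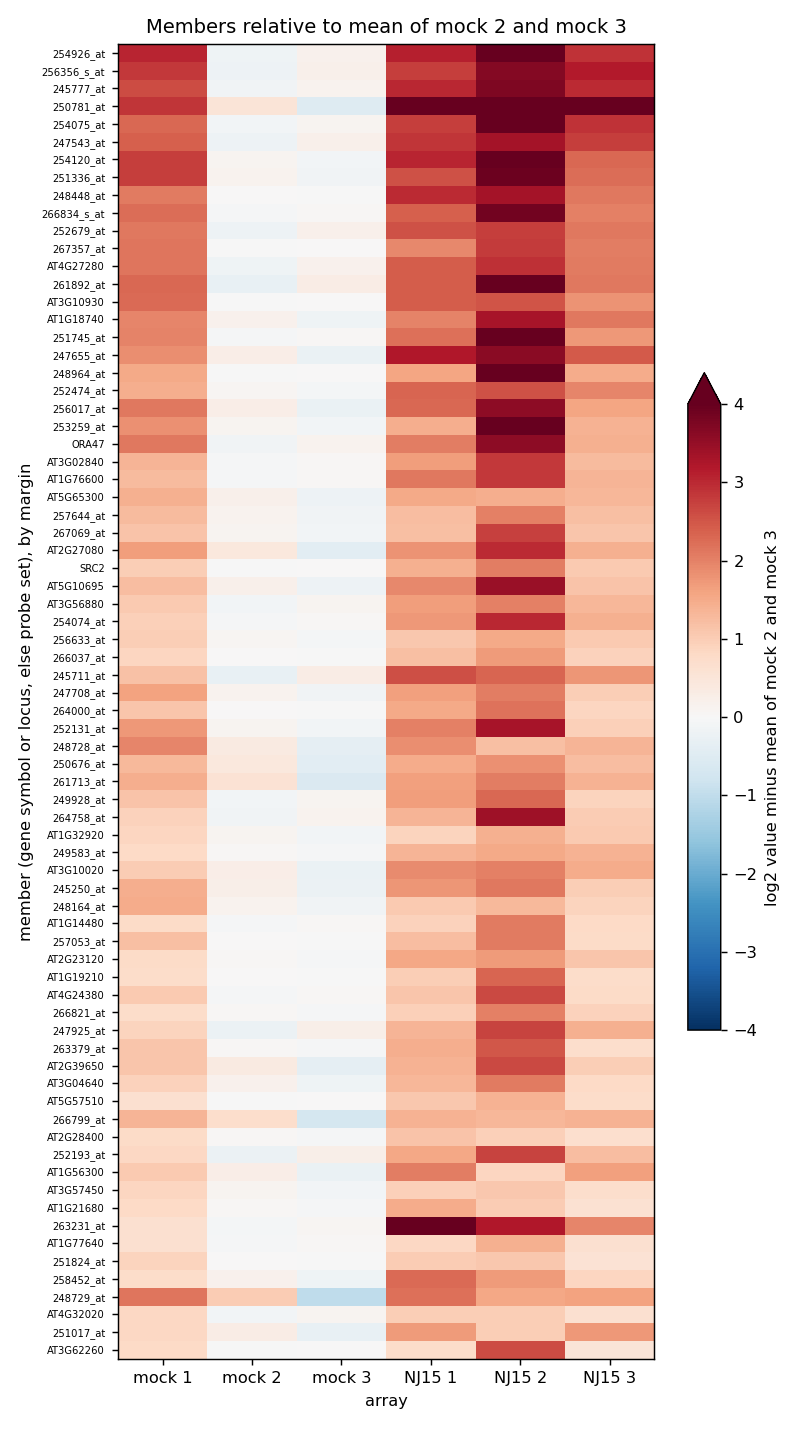
Values of the 74 members on the 6 arrays as log2 differences from the mean of mock replicates 2 and 3, one row per member in order of margin; the colour scale ends at 4. The columns for mock 1 and the 3 NJ15 arrays are red by construction, and NJ15 2 is the darkest column in most rows.

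AT4G27280, which encodes an EF-hand protein that binds calcium, had the largest margin among members with a gene name. On the log2 scale it stood at 11.06, 8.75 and 9.09 in mock replicates 1, 2 and 3 and 11.35, 11.85 and 10.98 in NJ15 replicates 1, 2 and 3. Mock replicate 1 lay above NJ15 replicate 3, so the groups overlapped. SRC2, a C2 domain protein of membranes known to activate an NADPH oxidase, stood at 10.52, 9.53 and 9.54 in mock and at 10.94, 11.58 and 10.58 in NJ15 seedlings. For SRC2 mock replicate 1 was the lowest of the 4 high arrays, just below NJ15 replicate 3.

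The 3 transcription factors among the named members all belong to the AP2/ERF family. ORA47, known as a regulator of jasmonate synthesis genes, had log2 levels of 7.87, 5.61 and 5.92 in mock and 7.83, 9.33 and 7.19 in NJ15 seedlings. Mock replicate 1 was higher than NJ15 replicates 1 and 3, and NJ15 replicate 2 stood well above all other arrays. AT1G19210 had lower levels, with 6.75, 6.02 and 5.99 in mock and 6.98, 8.32 and 6.73 in NJ15 seedlings. AT1G77640 stood at 7.56, 6.85 and 6.97 in mock and at 7.74, 8.33 and 7.55 in NJ15 seedlings. In all 3 factors NJ15 replicate 2 was the highest array and mock replicate 1 lay inside the range of the NJ15 arrays.

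A secreted peptide, a VQ motif protein and an armadillo repeat protein were further named members. AT3G10930, which encodes a small secreted peptide of the IDA-like family, had log2 levels of 8.61, 6.32 and 6.35 in mock and 8.76, 8.85 and 8.15 in NJ15 seedlings. It was the only named member whose NJ15 mean, 8.58 ± 0.38 (SD, n = 3), was below mock replicate 1. AT3G56880, a VQ motif protein of a family that binds WRKY factors, stood at 10.38, 9.21 and 9.45 in mock and at 11.005, 11.35 and 10.66 in NJ15 seedlings, with mock replicate 1 below every NJ15 array. AT3G02840, an armadillo repeat protein, had 7.04, 5.63 and 5.72 in mock and 7.35, 8.52 and 6.95 in NJ15 seedlings. For this gene mock replicate 1 was above NJ15 replicate 3.

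AT1G18740 encodes a protein of the DUF793 family, as does AT1G74450, which was left out by name. AT1G18740 had log2 levels of 9.68, 7.92 and 7.54 in mock and 9.71, 11.03 and 9.83 in NJ15 seedlings. AT1G74450 had 8.91, 6.98 and 7.07 in mock and 9.01, 10.60 and 8.99 in NJ15 seedlings. In both genes of this family mock replicate 1 lay just below the lowest NJ15 array, and NJ15 replicate 2 was the highest array. AT1G76600, a protein with a PADRE domain, lies near the left-out calmodulin-like gene CML38, with 4 protein-coding genes between them in the gene table. It stood at 9.03, 7.74 and 7.80 in mock and at 9.89, 10.59 and 9.14 in NJ15 seedlings. CML38 had 7.57, 5.82 and 5.91 in mock and 7.77, 9.55 and 7.57 in NJ15 seedlings. No other pair of named members, or of a named member and a left-out gene, had 9 or fewer protein-coding genes between them.

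AT2G27080, of the NDR1/HIN1-like family of membrane proteins, had log2 levels of 9.21, 7.98 and 7.13 in mock and 9.35, 10.55 and 8.97 in NJ15 seedlings. Its mock replicates 2 and 3 differed by more than those of the genes above. For AT5G65300, AT5G10695 and AT1G32920 no function is stated here. AT5G65300 stood at 8.78, 7.55 and 7.16 in mock and at 8.87, 8.80 and 8.70 in NJ15 seedlings, so that mock replicate 1 and the 3 NJ15 arrays were nearly level. AT5G10695 had 8.38, 7.34 and 6.91 in mock and 9.03, 10.57 and 8.28 in NJ15 seedlings, with a wide spread among the NJ15 arrays. AT1G32920 was at 10.34, 9.57 and 9.37 in mock and at 10.37, 10.90 and 10.53 in NJ15 seedlings, with mock replicate 1 just below the NJ15 arrays.

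**Figure D2:**
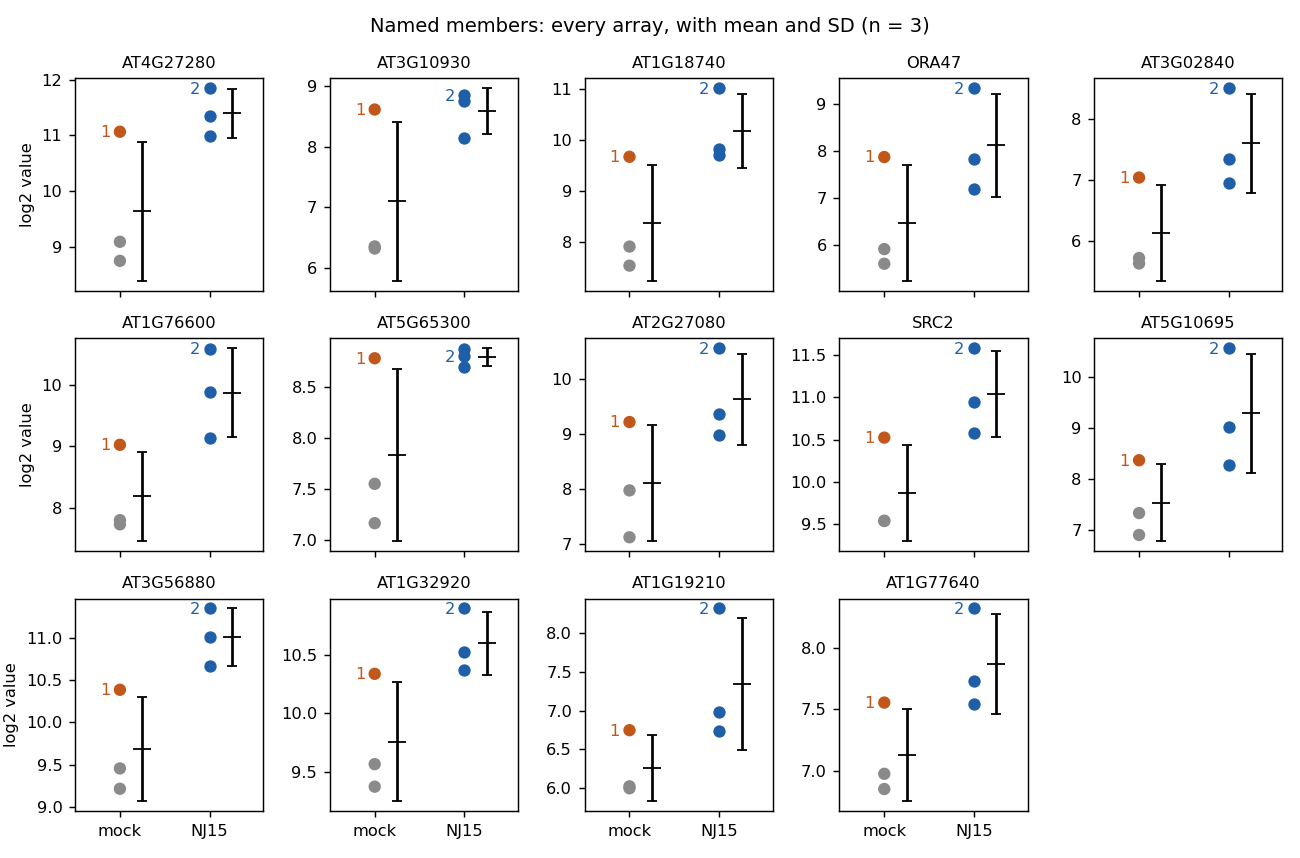
Log2 values of 14 named members on every array, mock on the left and NJ15 on the right of each panel; the bars give the mean and SD (n = 3), and mock 1 (orange) and NJ15 2 are numbered. Mock 1 sits apart from the other 2 mock arrays (grey) in every panel because the rule required it, and NJ15 2 is the highest NJ15 array in all panels but AT5G65300.

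The other 13 named members had margins of 0.52 to 0.75 log2 units. In mock replicate 1 they stood 0.65 to 1.12 above the mean of mock replicates 2 and 3, and their NJ15 means lay 0.04 to 0.77 above mock replicate 1. They include AT3G62260, a protein phosphatase of the PP2C type, AT1G14480, an ankyrin repeat protein, AT2G28400, a protein of the S40 senescence family, AT2G23120, a late embryogenesis abundant protein, AT1G56300, a DnaJ co-chaperone, AT3G04640, a glycine-rich protein, AT2G39650, of the DUF506 family, and AT1G21680, with a propeller-like fold. The other 5, with no function stated here, are AT3G10020, AT4G24380, AT5G57510, AT3G57450 and AT4G32020. Values seen first led to the choice of AT3G62260, AT1G56300 and the single probe sets without a gene name that follow. AT3G62260 had 7.79, 6.99 and 7.001 in mock and 7.72, 9.60 and 7.52 in NJ15 seedlings, so NJ15 replicate 2 was the only array above mock replicate 1. AT1G56300 had 7.98, 7.20 and 6.64 in mock and 8.97, 7.79 and 8.55 in NJ15 seedlings, with NJ15 replicate 2 the lowest of the NJ15 arrays.

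Among the 45 members without an entry in the gene table, margins ran from 0.53 to 2.73 log2 units, and mean levels from 6.75 to 10.22. Probe set 254926_at had the largest margin of all members, with 9.99, 6.77 and 7.10 in mock and 10.05, 12.14 and 9.83 in NJ15 seedlings. Probe set 250781_at had the highest NJ15 mean relative to mock replicates 2 and 3, with 8.80, 6.46 and 5.41 in mock and 11.50, 12.79 and 10.24 in NJ15 seedlings. Its mock replicate 1 lay well below the lowest NJ15 array. Probe set 263231_at likewise had a low mock replicate 1, with 7.15, 6.44 and 6.57 in mock and 11.13, 9.72 and 8.45 in NJ15 seedlings, and its highest array was NJ15 replicate 1. Of the 2 probe sets paired with several genes, 256356_s_at had 8.81, 5.76 and 6.18 in mock and 8.74, 9.64 and 9.15 in NJ15 seedlings. The other, 266834_s_at, had 8.94, 6.63 and 6.75 in mock and 9.08, 10.56 and 8.69 in NJ15 seedlings.

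The margin was 1 or more in 27 members and 2 or more in 9, and 18 of the first 27 and 8 of these 9 were probe sets without an entry in the gene table. The last member inside the limit was AT3G62260 at 0.52, and the first probe sets outside were those of PUB19 at 0.496, AT1G56660 at 0.493 and 264042_at at 0.489. PUB19, a ubiquitin ligase, and AT2G21640, at 0.39, were among the 14 names to be left out and did not reach the margin in any case. The 12 that did reach it had a median log2 level of 8.28, 6.56 and 6.37 in mock replicates 1, 2 and 3 and of 8.89, 10.08 and 8.44 in NJ15 replicates 1, 2 and 3. Their median therefore ran over the arrays in the same order as that of the members, except that NJ15 replicate 3 lay slightly above mock replicate 1. The reverse pattern, mock replicate 1 and every NJ15 array at least 0.5 below the lower of mock replicates 2 and 3, was found in 8 tested probe sets.

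The rule set no order between mock replicate 1 and the NJ15 arrays. In 44 members mock replicate 1 lay within the range of the 3 NJ15 arrays, in 28 below all of them and in 2, the probe sets 248728_at and 248164_at, above all of them. The NJ15 mean exceeded mock replicate 1 by a median of 0.48 log2 units (range -0.46 to 2.71). This median rested largely on 1 array: it was 0.09 without NJ15 replicate 2, 0.55 without NJ15 replicate 1 and 0.75 without NJ15 replicate 3. Mock replicate 1 came within 0.5 log2 units of NJ15 replicate 3 in 57 members and of NJ15 replicate 1 in 55, but of NJ15 replicate 2 in 12. With 1 array on one side there is no test of the difference between mock replicate 1 and the NJ15 group.

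**Figure D3:**
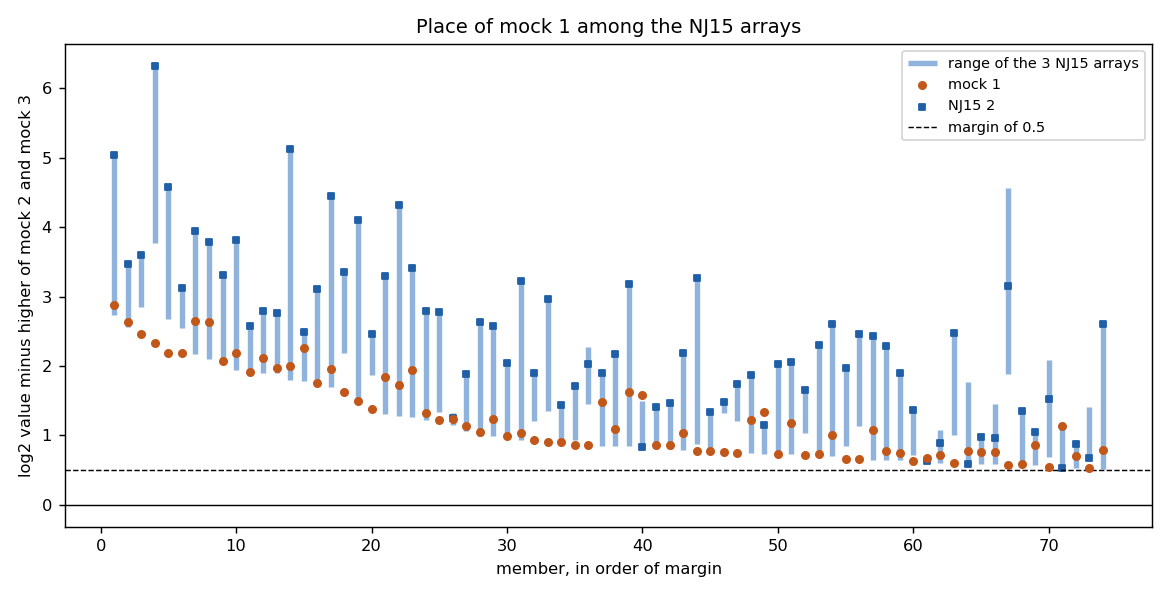
Log2 values of the 74 members, in order of margin, above the higher of mock replicates 2 and 3: the blue bar spans the 3 NJ15 arrays, the orange point is mock 1 and the square is NJ15 2; the dashed line is the margin of 0.5. Mock 1 lies within the bar in 44 members, below it in 28 and above it in 2.

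The rule also set no order among the 3 NJ15 arrays. NJ15 replicate 2 was the highest of them in 63 of 74 members (85.1%) and NJ15 replicate 3 the lowest in 62 (83.8%). Among the 6070 other probe sets that varied over the arrays, NJ15 replicate 2 was the highest in 34.8% (35.4% of all 6144 varying probe sets) and NJ15 replicate 3 the lowest in 32.9%. NJ15 replicate 2 exceeded the mean of NJ15 replicates 1 and 3 by a median of 0.79 log2 units in the members, and by at least 1 in 33 of them. The median was 1.26 in the 27 members with a margin of 1 or more, of which 26 had NJ15 replicate 2 highest, and 0.64 in the 47 others, of which 37 had. As comparison served the 66 further probe sets in which every NJ15 array was at least 0.5 above every mock array. In these the median difference was -0.01, NJ15 replicate 2 was the highest in 22 and NJ15 replicate 1 in 38. NJ15 replicate 3 was the lowest in 45 of the 66 (68.2%), so a low NJ15 replicate 3 was not particular to the members. Nor was a high NJ15 replicate 2: it was the highest in 10 of the 12 genes that met the margin and were left out by name (83.3%). In these 12 its median excess over the mean of NJ15 replicates 1 and 3 was 1.57, and NJ15 replicate 3 was the lowest in all 12. Members of 1 array share that array, so these counts describe the arrays and give no test over members.

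The members with the widest NJ15 range were probe sets 261892_at and 253259_at. Probe set 261892_at had 8.25, 5.65 and 6.26 in mock and 8.37, 11.38 and 8.05 in NJ15 seedlings. Probe set 253259_at had 7.32, 5.59 and 5.37 in mock and 6.93, 9.91 and 6.88 in NJ15 seedlings, so mock replicate 1 lay above both NJ15 replicates 1 and 3. At the other end, probe set 266799_at had 10.04, 9.36 and 7.97 in mock and 10.06, 9.99 and 10.06 in NJ15 seedlings, and there mock replicates 2 and 3 lay further apart than the NJ15 arrays. Over all members, mock replicates 2 and 3 were within 0.5 of each other in 59 of 74, and replicate 2 was the higher in 43.

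**Figure D4:**
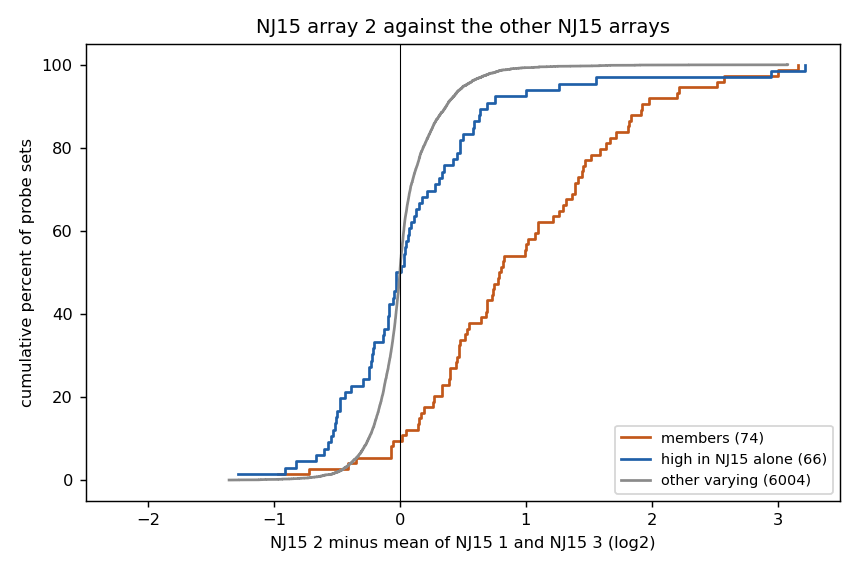
Cumulative percent of probe sets against the log2 value of NJ15 2 minus the mean of NJ15 1 and NJ15 3, for the 74 members, the 66 other probe sets high in NJ15 alone and the remaining varying probe sets. The curve of the members lies to the right, with a median of 0.79, while the other 2 curves cross their medians near 0.

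The rule was then applied with single arrays left out, a choice made after the values were known, so that the array left out took no part in the selection. Without NJ15 replicate 2 it found 78 probe sets; in these NJ15 replicate 2 was above the higher of mock replicates 2 and 3 in 78 and by at least 0.5 in 74, against 6.04% of all varying probe sets. Those 74 are the members themselves, by the definition of the rule. NJ15 replicate 2 was the highest NJ15 array in 63 of the 78, and these are the same 63 members counted above. They are therefore no independent count. The 74 reached below without NJ15 replicate 1, NJ15 replicate 3 or mock replicate 1 are also the members. Without NJ15 replicate 1 the rule found the same number as with it, 74, and without NJ15 replicate 3 it found 112, of which 74 had NJ15 replicate 3 at least 0.5 above. Without mock replicate 1 the rule found 155 probe sets, and mock replicate 1 was at least 0.5 above mock replicates 2 and 3 in 74 of these (47.7%), against 3.79% of all varying probe sets. Mock replicates 2 and 3 set the baseline in all counts up to here, so the counts are not independent. Selection against this baseline favours probe sets that are low on these 2 arrays. That raises each share relative to the share of all varying probe sets, so nothing is read from the contrast. With mock replicate 2 left out, and mock replicate 3 alone as the baseline, the rule found 340 probe sets, and mock replicate 2 was at least 0.5 above that baseline in 251 (73.8%), against 11.5% of the varying probe sets. With mock replicate 3 left out it found 104, and mock replicate 3 was at least 0.5 above mock replicate 2 in 25 (24.0%), against 10.5%. These last 2 shares rest on a baseline of 1 array, so they cannot be compared with the share for mock replicate 1. Selection against 1 baseline array also favours probe sets that are low on that array, which raises the share. A value 0.5 above that baseline does not place a mock array among the NJ15 arrays. Whether the pattern was limited to mock replicate 1 was not tested.

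NJ15 was compared with mock over all probe sets by limma, with p-values adjusted by the Benjamini-Hochberg method. The fit called 0.193% of all tested probe sets, 0.0835% as higher in NJ15, and 0 of the 74 members, whose lowest limma adjusted p was 0.715. Of the 44 probe sets called, 40 held nearly equal values on all arrays, so this share is no measure of the response to NJ15. At an unadjusted limma p under 0.05 stood 17 members, against 5.51% of all tested probe sets. Fitted over the varying probe sets alone, limma called 0.0651% higher in NJ15 and again 0 members, of which 32 had an unadjusted p under 0.05, against 7.7% of these probe sets. The median difference between the NJ15 and mock means was 1.31 log2 units in the members and -0.0076 in the other varying probe sets. Since the rule used this contrast and asked for 1 high mock array, nothing is read from these counts. For AT4G27280, whose mock mean was 9.63 ± 1.25 (SD, n = 3) and whose NJ15 mean was 11.39 ± 0.43 (SD, n = 3), the difference was 1.76 with a standard error of 0.75. Without mock replicate 1 it was 2.48. For ORA47, with 6.47 ± 1.23 (SD, n = 3) and 8.12 ± 1.10 (SD, n = 3), it was 1.65 with a standard error of 0.94, and 2.35 without mock replicate 1.

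Every NJ15 array lay above every mock array in 28 members, where 3.49% of all tested and 6.51% of the varying probe sets did so. The rule favours such probe sets, so nothing is read from this count either. In 5 of the 74 members every NJ15 array was also at least 0.5 above mock replicate 1. Every NJ15 array was at least 0.5 above every mock array in 0.312% of all tested and 1.16% of the varying probe sets. The share is higher in the members, but the rule already asked for high NJ15 arrays, so nothing is read from it. After each array was centred on the common median, 19 members were called by limma, but that fit also called 16591 probe sets that hold nearly equal values on all arrays.

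Gene lists of stress signalling, the circadian clock and tissue markers gave the surroundings of the members. The 12 lists held 240 genes; 33 could be matched to a probe set, and 21 varied over the arrays. The other 207 had no named probe set and may be among the 45 members without a gene entry, so the lists do not show which of their genes belong to the members. None of the 21 was a member, where members make up 1.204% of the varying probe sets, 3 were among the genes left out by name (STZ, CML38 and CML23), and none passed the limma test in either direction. No listed ERF or DREB factor and no ethylene synthesis gene could be matched. In the touch and calcium list, 6 of 20 genes were matched and 4 varied: CML38 and CML23, which met the margin and were left out by name, CML37 and CML41. Their differences between NJ15 and mock means were 1.86, 1.21, 0.74 and -0.09, with a median of 0.97, so the upper 2 are those that the rule picked. CML37, a calmodulin-like protein, had 6.42, 5.65 and 5.93 in mock and 6.54, 7.58 and 6.10 in NJ15 seedlings and missed the margin at 0.17. Mock replicate 1 was its highest mock array and NJ15 replicate 2 its highest of all. CML41, another calmodulin-like protein, had 6.28, 6.38 and 6.36 in mock and 6.21, 6.26 and 6.29 in NJ15 seedlings, with mock replicate 1 the lowest mock array.

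In the immune signalling list, 6 of 55 genes were matched and 3 varied, all of them ubiquitin ligases of the PUB family that dampen immune responses. PUB23 had 8.52, 7.21 and 7.16 in mock and 8.57, 9.21 and 7.65 in NJ15 seedlings, with a margin of 0.44. PUB22 had 8.43, 7.97 and 7.17 in mock and 8.29, 8.93 and 8.27 in NJ15 seedlings, with a margin of 0.31. PUB24 stayed between 6.72 and 7.05 on all arrays. Of the WRKY factors, 3 of 22 were matched and 2 varied: WRKY22 had 7.14, 6.73 and 6.95 in mock and 7.03, 7.75 and 7.02 in NJ15 seedlings, while WRKY6 ranged only from 7.21 to 7.38. Of the jasmonate list, 4 of 28 genes were matched, and the 1 that varied, JOX2, a jasmonate oxidase, had a difference between NJ15 and mock means of -0.05.

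Of the heat shock list, 2 of 14 genes were matched and both varied, and neither belongs to the members. HSP17.6C had 6.57, 6.39 and 6.58 in mock and 6.56, 7.06 and 6.43 in NJ15 seedlings, a difference between means of 0.17. ROF2, a heat-inducible immunophilin, had 5.88, 6.50 and 6.22 in mock and 9.14, 8.56 and 8.76 in NJ15 seedlings. Its mock replicate 1 was the lowest array, unlike in the members, where the rule required the opposite. ZAT5, the zinc finger gene matched beside STZ, had 8.53, 8.32 and 8.23 in mock and 7.87, 7.76 and 7.79 in NJ15 seedlings. COR47, a dehydrin of drought and cold, ranged from 10.93 to 11.47. Of 10 circadian clock genes 1 was matched, GI, with 8.35, 7.91 and 6.67 in mock and 7.95, 7.81 and 7.84 in NJ15 seedlings. Mock replicate 1 was its highest array.

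Tissue markers could be read for part of the lists. PYK10, a myrosinase of root and hypocotyl cells and the only varying root marker of 3 matched, ranged from 13.05 to 13.32. The other 2, the root hair expansins EXPA7 and EXPA18, were flat at 6.42 and 6.51, where no presence can be read. Of 20 green tissue markers 4 were matched, the chlorophyll-binding LHCB4.1 and LHCB4.2 and the carbon fixation genes PRK and RCA. Their mean log2 level was 10.75, 11.44 and 12.06 in mock replicates 1, 2 and 3 and 11.004, 11.62 and 11.59 in the NJ15 arrays. Mock replicate 1 was the lowest array for this mean, and NJ15 replicate 2, where most members were highest, was the second highest. The mock mean was 11.42 ± 0.66 (SD, n = 3) and the NJ15 mean 11.40 ± 0.35 (SD, n = 3), and the groups overlapped (exact permutation test, two-sided, p = 1; 3 against 3 cannot go below 0.1). The sign of this small difference turned under quantile normalization. The part of tissue composition in the members' levels was not tested.

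As measures of RNA quality, the arrays hold 2 pairs of 3 prime and 5 prime control probe sets per gene. In the first GAPDH pair, the difference between the 3 prime and 5 prime log2 values was 1.37, 1.42 and 1.35 in mock and 0.82, 1.09 and 1.10 in NJ15 seedlings. In the second GAPDH pair, added after the values were known, it was 0.14, -0.17 and 0.0040 in mock and 0.20, 0.23 and 0.21 in NJ15 seedlings. The groups did not overlap in either pair, but NJ15 seedlings were lower in the first and higher in the second, so the pairs give no common direction. For the first ubiquitin pair it was 0.69, 0.45 and 0.72 in mock and 0.46, 0.43 and 0.54 in NJ15 seedlings. For the second it was 0.15, 0.15 and 0.17 in mock and 0.11, 0.11 and 0.13 in NJ15 seedlings, lower with no overlap. The 3 prime probe set of this second pair held nearly equal values on all arrays. Only its 5 prime probe set moved, between 12.02 and 12.08, so no RNA quality can be read from this pair. The first actin pair gave 3.23, 3.23 and 3.21 in mock and 3.21, 3.19 and 3.23 in NJ15 seedlings. The second gave 1.52, 1.54 and 1.53 in mock and 1.56, 1.49 and 1.45 in NJ15 seedlings. The groups overlapped in each actin pair (exact permutation test, two-sided, p = 0.4 each). In each, the 5 prime probe set held nearly equal values on all arrays. Mock replicate 1 lay with the mock arrays in the first GAPDH pair and nearer to the NJ15 arrays in the second GAPDH pair. Each GAPDH pair and the second ubiquitin pair gave p = 0.1 (exact permutation test, two-sided), the lowest this design allows. For the ubiquitin pair this p reflects the 5 prime probe set alone. The part of RNA quality in the members' levels was not tested. None of the 64 control probe sets met the rule that chose the members.

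**Figure D5:**
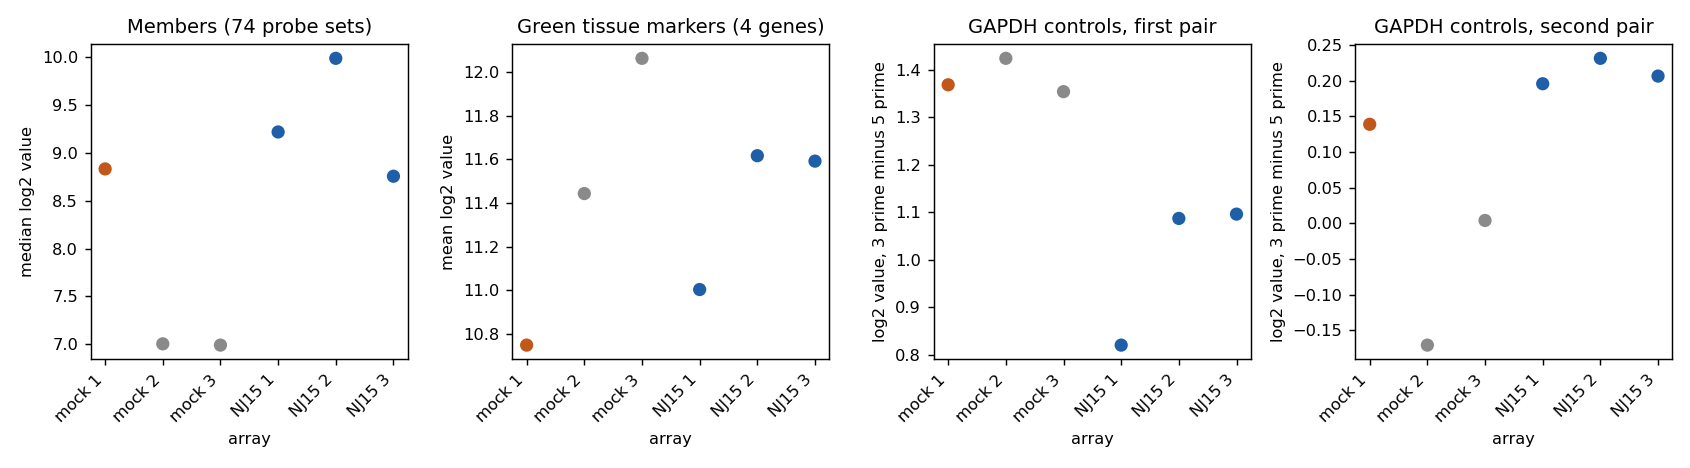
For each of the 6 arrays, the median log2 value of the 74 members, the mean log2 value of 4 green tissue markers, and the 3 prime minus 5 prime log2 difference of each of the 2 pairs of GAPDH control probe sets; the axes do not start at 0. Mock 1 lies with the NJ15 arrays in the first panel, is the lowest array in the second at 10.75, lies with the mock arrays in the third at 1.37 and lies nearest to the NJ15 arrays in the fourth at 0.14.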

How the data were processed

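The deposited table holds 22810 probe sets and 6 arrays; 64 control probe sets were not tested. Its values are log2 expression values as deposited, a unit read from their range; R 2.7.2 was used per the submitters' processing notes, and how background was corrected and arrays were normalized and summarized is not given in the sources used. In 16602 tested probe sets (73.0%) the 6 values span no more than 0.01 (flat; the other 6144 are called varying), so no change can be read there, and how this affects other probe sets was not tested. Signal over background is unknown, and the number of arrays limits precision.

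Members, gene lists and tests were chosen with earlier results of these data known. Probe sets were named by the platform's annotation, with symbols and gene order taken from the RefSeq genes of TAIR10.1; 13513 tested probe sets had 1 gene, 503 several and 8730 no entry. For listed genes the probe set with the highest mean was used. Members named in full were the 12 named ones with the largest margin and 2 further AP2/ERF factors; others are given by ranges or were singled out as stated.

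The test of NJ15 against mock was limma's (version 3.58.1; lmFit, then eBayes; R 4.3.3), two-sided and adjusted over all 22746 probe sets at 0.05. Values were shifted per probe set to limit rounding noise, and the fit was tested on simulated data. Single values used exact permutation tests (scipy 1.17.1).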

Additional observations from a re-analysis of the deposited data

Results flagged for a closer look

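Of the 64 control probe sets, which took no part in the comparisons, 29 varied, and in 4 of these every NJ15 array lay above every mock array. In 1 every NJ15 array lay below every mock array. These were noted because they show a difference in data outside the main measurement; none had the pattern of the members, with mock replicate 1 beside the NJ15 arrays.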

How the results depend on the processing

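The members depended on the margin: 139 probe sets met 0.25 and 27 met 1, against 74 at 0.5. Quantile normalization gave 75, which included all 74, and centring the arrays to 1 median gave the same 74. Leaving 1 array out of the rule, an alternative added after the data were seen, gave 74 to 340. The median difference between NJ15 and mock means of the members, 1.31, ran from 1.04 to 1.69 when single arrays were left out. That between the NJ15 mean and mock replicate 1, 0.48, ran from 0.09 to 0.75. Both kept their sign in all settings run. With limma, 44 probe sets were called in all, of which 40 were flat. The count was 0 after quantile normalization, with an intensity trend and with the replicate block, where 3347, 886 and 1208 had an unadjusted p under 0.05. It was 1 without probe sets of low mean, 4 over varying probe sets, 4 to 15 with single arrays left out and 17165 after centring, of which 16591 were flat. Members were called only after centring, where 19 passed; in all other settings the count was 0. The 14 members given in full had limma differences of 0.52 to 2.48 with single arrays left out (lowest adjusted p 0.266); 2 were called after centring. The replicate number as a block gave differences of 0.74 to 1.81 with adjusted p of 0.866 to 0.899. Over varying probe sets other than the members, deviations from the group means of arrays with the same number correlated at 0.66, -0.25 and 0.16. Mock replicate 2 went best with NJ15 replicate 3 (0.38) and mock replicate 3 with NJ15 replicate 2 (0.43). Each mock array thus had a different best NJ15 array, but the numbers matched only for replicate 1, so they were not taken as pairs. What the best-matched arrays share was not tested. The green tissue marker difference, -0.01, turned to 0.0025 after quantile normalization and ran from -0.35 to 0.31 with single arrays left out. The root marker difference, 1.39e-05, turned to -0.018 after centring and ran from -0.085 to 0.049 with single arrays left out. The 3 prime minus 5 prime difference of GAPDH between NJ15 and mock, -0.38, turned to 0.22 in the second pair of control probe sets, chosen after seeing the data. Ubiquitin and actin kept their sign, but the second ubiquitin pair and each actin pair held a flat probe set. With no scanner values, what dim signal limits is unknown.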
